A study of Homo sapiens with 6 samples.

Results

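The genes described here are 10 genes of fatty acid synthesis and lipid storage, taken by symbol from a table of 58825 genes. They are the regulator SREBF1, the synthesis enzymes ACLY, ACACA, FASN, SCD and ELOVL6, the triglyceride enzyme DGAT1, the droplet coat genes PLIN2 and PLIN3, and the lipase gene PNPLA2. The libraries came from PC9 cells, a lung adenocarcinoma line of human origin whose growth depends on mutant EGFR and is blocked by gefitinib, an inhibitor of that kinase. In 3 libraries FOXM1, a transcription factor of dividing cells, was overexpressed with the G allele of rs3742076. In the other 3 libraries it was overexpressed with the A allele. Cells of both groups had received 100 nM gefitinib over 24 h, so drug-free cells and cells without added FOXM1 are not analysed here, and both groups share the parental line. The series title names gefitinib resistance and Wnt/β-catenin signalling, and the comparison asked of the data is G against A. The labels number the replicates but do not say that they were separate cultures, so p-values reflect the scatter of these libraries alone, and that scatter may be technical. In bulk RNA, fewer cells with a transcript and less of it per cell cannot be told apart.

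Cells make fatty acids from citrate: ACLY splits citrate into acetyl-CoA, ACACA carboxylates it to malonyl-CoA, and FASN builds palmitate from both. ELOVL6 lengthens palmitate, SCD puts a double bond into the saturated chain, and SREBF1 encodes the transcription factor that switches on this set of genes. Surplus fatty acids are stored as triglyceride, whose last bond DGAT1 makes, in lipid droplets coated by perilipins such as PLIN2 and PLIN3. PNPLA2, the adipose triglyceride lipase, starts the breakdown of that store.

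PLIN2 was at 28.2 ± 0.458 FPKM in G cells and 22.4 ± 0.15 FPKM in A cells (SD, n = 3 each), and PNPLA2 was at 48.9 ± 5.10 FPKM in G cells and 58.3 ± 4.26 FPKM in A cells (SD, n = 3 each). In these 2 genes the libraries of the alleles did not overlap, in opposite directions, whereas in the other 8 genes they overlapped. None of the 10 passed the test: the count called was 0 by limma at an adjusted p under 0.05 over 12787 tested genes, where limma called 0.109% of all genes (0.0313% with the higher level in G, 0.0782% with the lower), and 2 of 10 had an unadjusted p under 0.05, against 17.3% of all genes. Non-overlapping groups were found in 2 of 10 genes, against 24.9% of all genes tested, and the count of 2 by unadjusted p lay near its background. In 1 of the 10, PLIN2, every G library was above every A library, as in 15.4% of all genes. FPKM, the deposited unit, counts fragments relative to transcript length and to the size of the library, and log2 changes here are G minus A on log2(FPKM + 1), which understates the change of low genes.

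FOXM1 itself did not separate the groups. It was at 14.6, 14.3 and 14.0 FPKM in G cells and at 25.5, 10.5 and 10.1 FPKM in A cells. The exact two-sided permutation p was 1, where 0.1 is the smallest that 3 against 3 libraries allow, and A replicate 1 stood far above the other A libraries. The libraries held an estimated 19990000 to 23420000 read pairs each, and 12451 to 12858 genes reached 1 FPKM. The share of summed FPKM from mitochondrial genes was 17.7% to 19.7% in G libraries and 22.1% to 22.2% in A libraries; summed FPKM was 253706 to 255269 in G and 270219 to 277596 in A, and the part of either in the results below was not tested beyond the scaling alternatives given. All 6 epithelial markers were present, with EPCAM at 109 to 120 FPKM and KRT19 at 1292 to 1579 FPKM over both groups. KRT7, KRT8 and KRT18 were lower in every G library than in any A library, KRT7 at 341 to 384 FPKM in G and 426 to 468 FPKM in A. The groups overlapped in EPCAM, KRT19 and CDH1, the last at a mean of 50.9 FPKM in G and 45.9 FPKM in A. Non-overlap in 3 of 6 stands against 24.9% of all genes. Of the 6, 0 passed the limma test, which called 0.109% of all genes. An unadjusted p under 0.05 was reached by 2, against 17.3% of all genes. The summed level of the 6 was 2613 to 2865 FPKM in G and 2789 to 3341 FPKM in A, and its part in the results below was not tested. The lung lineage markers NKX2-1, NAPSA, SFTPB, SFTPC and SFTPA1 were each below 1 FPKM in every library. Of 5 adipocyte markers, ADIPOQ, LEP and FABP4 were at or near 0 and CIDEC was at 0.219 FPKM or less. The fifth, PLIN1, was at 1.91 to 2.25 FPKM in G and 1.79 to 2.64 FPKM in A and made up nearly all of the summed level, which was 2.12 to 2.47 FPKM in G and 1.82 to 2.88 FPKM in A.

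The promoters of PLIN2 and PNPLA2, the pair whose libraries separated, are shown as the 250 bases before the RefSeq start of each gene on GRCh38.p14; 8 of the 10 genes were in the promoter table. Both sequences read 5′ to 3′ on the strand of the gene, and capitals mark matches on either strand. The motifs searched were the E-box CACGTG, which USF and SREBP factors can bind, and the GC box GGGCGG. The hypoxia response cores were searched as ACGTG and as GCGTG. The CCAAT box was the last. ACGTG lies within CACGTG, so those matches overlap.

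PLIN2, chr9:19127493-19127742, minus strand: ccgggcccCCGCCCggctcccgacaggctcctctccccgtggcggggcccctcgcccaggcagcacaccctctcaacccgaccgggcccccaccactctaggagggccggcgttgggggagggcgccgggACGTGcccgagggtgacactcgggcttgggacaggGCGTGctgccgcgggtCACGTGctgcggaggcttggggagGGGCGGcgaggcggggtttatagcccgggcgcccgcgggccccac

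PNPLA2, chr11:818664-818913, plus strand: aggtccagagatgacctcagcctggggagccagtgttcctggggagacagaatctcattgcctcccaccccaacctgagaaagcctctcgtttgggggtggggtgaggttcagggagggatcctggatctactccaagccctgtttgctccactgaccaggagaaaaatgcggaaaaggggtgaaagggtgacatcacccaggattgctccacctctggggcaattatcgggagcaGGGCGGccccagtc

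The PLIN2 window held 1 CACGTG, whose first base lay 69 bases before the start, and 3 matches to ACGTG, of which 1, at 120 bases before the start, lay outside the E-box. It also held 1 GCGTG, at 85 bases, and GGGCGG at 242 and 45 bases. The PNPLA2 window held GGGCGG at 14 bases before the start and none of the other motifs searched. Of 34943 promoter windows of the same length, 6.32% held the E-box, 18.5% the hypoxia core that begins with A and 32.2% the one that begins with G. The CCAAT box was in 32.0% and the GC box in 42.5% of them. These are matches of letters, not measured binding.

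**Figure D1:**
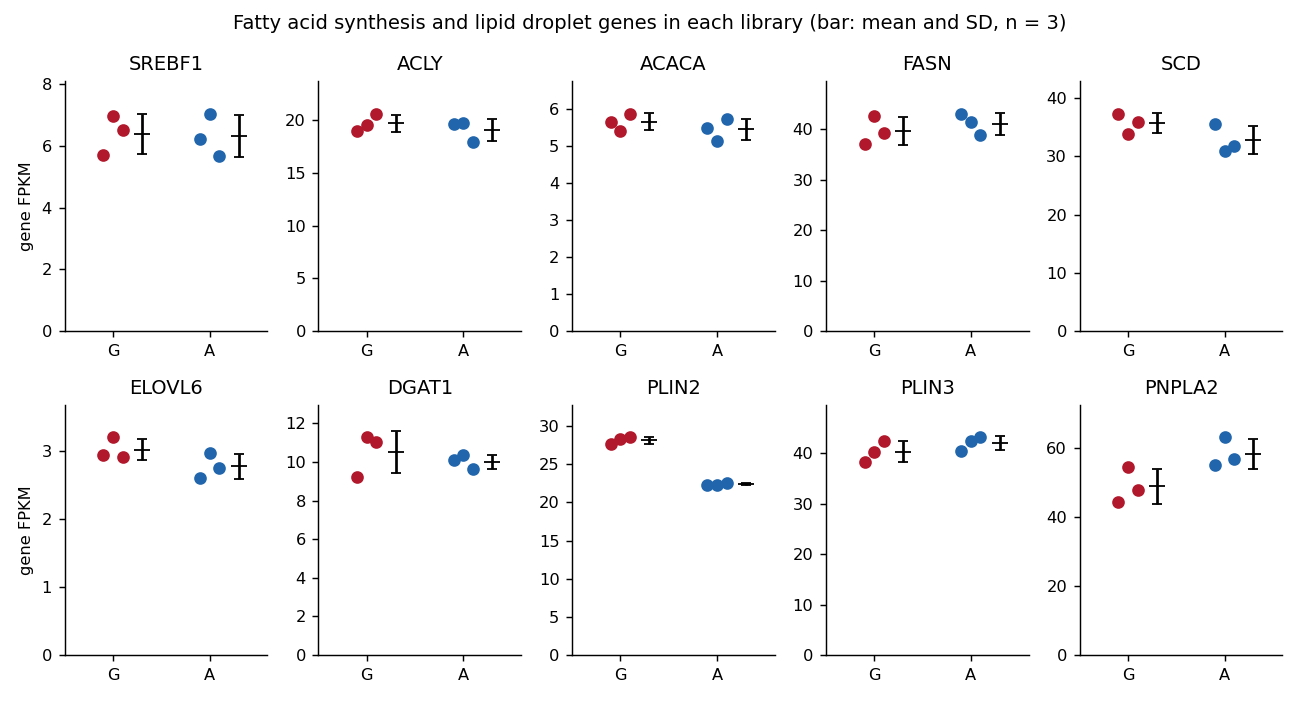
Gene FPKM of each of the 10 genes in the 3 rs3742076_G libraries (red, left) and the 3 rs3742076_A libraries (blue, right), each panel on its own axis from 0, with the mean and SD beside the points. PLIN2 lies at 27.7 to 28.5 in G above 22.3 to 22.6 in A, PNPLA2 at 44.3 to 54.4 in G below 55.1 to 63.1 in A, and the groups overlap in the other 8 panels.

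SREBF1 (ENSG00000072310, chromosome 17, 17810399 to 17837002, minus strand) was at 5.69, 6.96 and 6.52 FPKM in G cells and at 6.22, 7.04 and 5.68 FPKM in A cells. The groups covered the same range, and the log2 change was 0.02 ± 0.10 (SE) with a 95% interval of -0.23 to 0.26. The sign of this difference was negative under median-ratio scaling, at -0.0043, and under quantile scaling, at -0.013.

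The 3 enzymes that lead to palmitate did not differ beyond the spread. ACLY (ENSG00000131473, chromosome 17, 41866917 to 41930542, minus strand) was at 19.0, 19.5 and 20.6 FPKM in G cells and at 19.6, 19.7 and 17.9 FPKM in A cells. ACACA (ENSG00000278540, chromosome 17, 37084992 to 37406836, minus strand) was at 5.66, 5.42 and 5.88 FPKM in G cells and at 5.48, 5.15 and 5.72 FPKM in A cells. FASN (ENSG00000169710, chromosome 17, 82078338 to 82098294, minus strand) was at 37.0, 42.6 and 39.3 FPKM in G cells and at 43.1, 41.5 and 38.8 FPKM in A cells. Each of the 3 pairs of groups overlapped. The log2 changes were 0.05 ± 0.06, 0.04 ± 0.07 and -0.05 ± 0.07 (SE) for ACLY, ACACA and FASN in that order, and the FASN value turned to 0.05 when every library was scaled to the same sum.

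SCD (ENSG00000099194, chromosome 10, 100347233 to 100364826, plus strand) was at 37.3, 33.8 and 35.9 FPKM in G cells and at 35.5, 30.9 and 31.8 FPKM in A cells. Its log2 change of 0.12 ± 0.07 (SE) had a 95% interval of -0.05 to 0.29 and a limma adjusted p of 0.418, the lowest among the 8 genes whose groups overlapped. ELOVL6 (ENSG00000170522, chromosome 4, 110045846 to 110199199, minus strand) was the lowest of the 10 genes, at 2.94, 3.20 and 2.91 FPKM in G cells and at 2.60, 2.96 and 2.75 FPKM in A cells. Only G replicate 2 stood above every A library, and the log2 change was 0.09 ± 0.07 (SE). Summed over ACLY, ACACA, FASN, SCD and ELOVL6, the level was 101.9, 104.5 and 104.6 FPKM in G cells and 106.3, 100.2 and 97.0 FPKM in A cells, so the highest and the lowest sum were both in A.

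DGAT1 (ENSG00000185000, chromosome 8, 144314584 to 144326910, minus strand) was at 9.24, 11.3 and 11.0 FPKM in G cells and at 10.1, 10.3 and 9.62 FPKM in A cells. G replicate 1 was below every A library and the other G libraries were above them. The log2 change was 0.06 ± 0.08 (SE), with a 95% interval of -0.14 to 0.26.

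PLIN2 (ENSG00000147872, chromosome 9, 19108375 to 19149290, minus strand), which coats droplets in most cell types and is degraded when no lipid is bound, was at 27.7, 28.3 and 28.5 FPKM in G cells and at 22.3, 22.3 and 22.6 FPKM in A cells. Every G library exceeded every A library by far more than the spread within either group, whose coefficients of variation were 1.62% in G and 0.67% in A. The mean was 25.6% higher in G, a log2 change of 0.32 ± 0.045 (SE) with a 95% interval of 0.21 to 0.43. By limma the unadjusted p was 0.000318, rank 34 of the 12787 tested genes, and the adjusted p was 0.12, so it did not pass. Scaled to equal sums per library, the change was 0.42 where the median of all genes was 0.11, which leaves 0.31 relative to that median, against 0.29 relative to the median on the deposited scale. The authors' deposited table gives PLIN2 a p of 0.0557 and a q of 0.936, the lowest q of the 10 genes, and marks 0 of the 10, where it marks 0.367% of all genes.

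PLIN3 (ENSG00000105355, chromosome 19, 4838341 to 4867694, minus strand), a perilipin that also occurs free in the cytosol, was at 38.3, 40.3 and 42.4 FPKM in G cells and at 40.5, 42.4 and 43.2 FPKM in A cells. The groups overlapped, with a log2 change of -0.06 ± 0.06 (SE) that was 0.05 under equal sums.

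PNPLA2 (ENSG00000177666, chromosome 11, 818914 to 825573, plus strand) was at 44.3, 54.4 and 48.0 FPKM in G cells and at 55.1, 63.1 and 56.8 FPKM in A cells. The highest G library lay just under the lowest A library, so the gap was small beside the spread within each group. The mean of G differed from that of A by -16.1%, a log2 change of -0.25 ± 0.09 (SE) with a 95% interval of -0.47 to -0.03. By limma the unadjusted p was 0.031, rank 1600 of the tested genes, and the adjusted p was 0.248. Relative to the median of all genes the change was -0.27 on the deposited scale and -0.25 under equal sums.

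**Figure D2:**
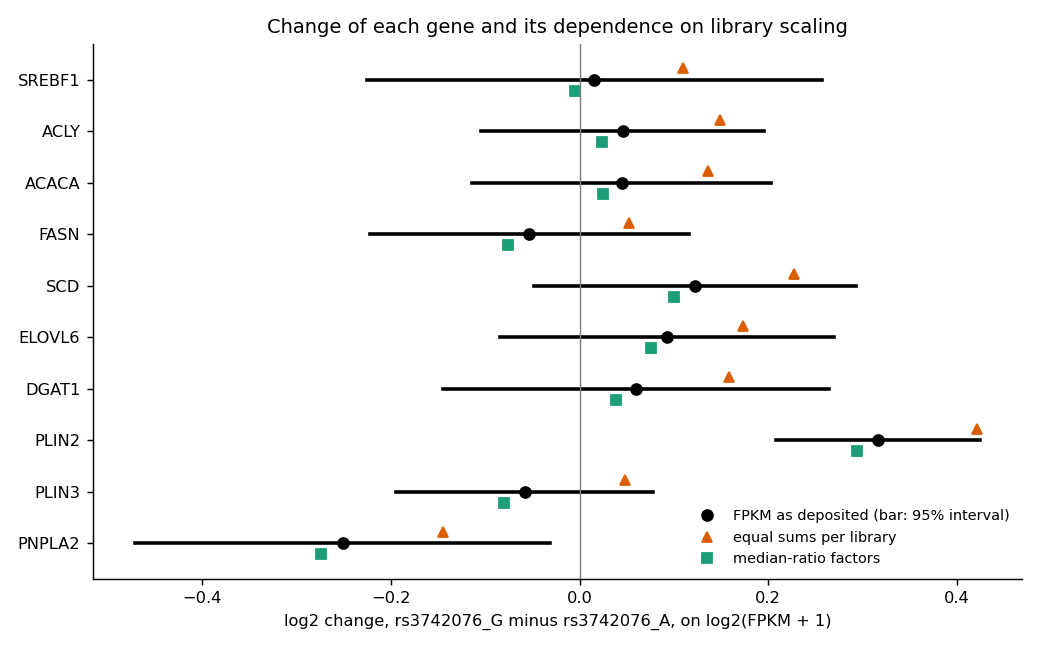
Log2 change of each gene, rs3742076_G minus rs3742076_A, with its 95% interval (black) and its value with equal sums per library (orange triangles) and with median-ratio factors (green squares). PLIN2 lies at 0.32 and PNPLA2 at -0.25, and the signs of FASN and PLIN3 (equal sums) and of SREBF1 (median-ratio factors) turn with the scaling.

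A ratio of genes within a library does not depend on the scaling of that library; the ratios here were chosen after the values were seen and carry no test. PLIN2 over PNPLA2, coat gene over lipase gene, was 0.624, 0.520 and 0.595 in G cells and 0.405, 0.354 and 0.398 in A cells. The mean ratio was 1.5-fold higher in G. Because PLIN2 was higher and PNPLA2 lower in every G library, the groups of this ratio could not overlap. PLIN2 over PLIN3 was 0.721, 0.702 and 0.673 in G cells and 0.551, 0.526 and 0.523 in A cells, also without overlap and 1.31-fold higher in G. DGAT1 over PNPLA2 did not overlap either, at 0.208, 0.207 and 0.230 in G cells and 0.183, 0.164 and 0.170 in A cells. SCD over FASN, desaturase over synthase, was 1.01, 0.794 and 0.914 in G cells and 0.823, 0.744 and 0.820 in A cells, where G replicate 2 lay inside the A range.

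**Figure D3:**
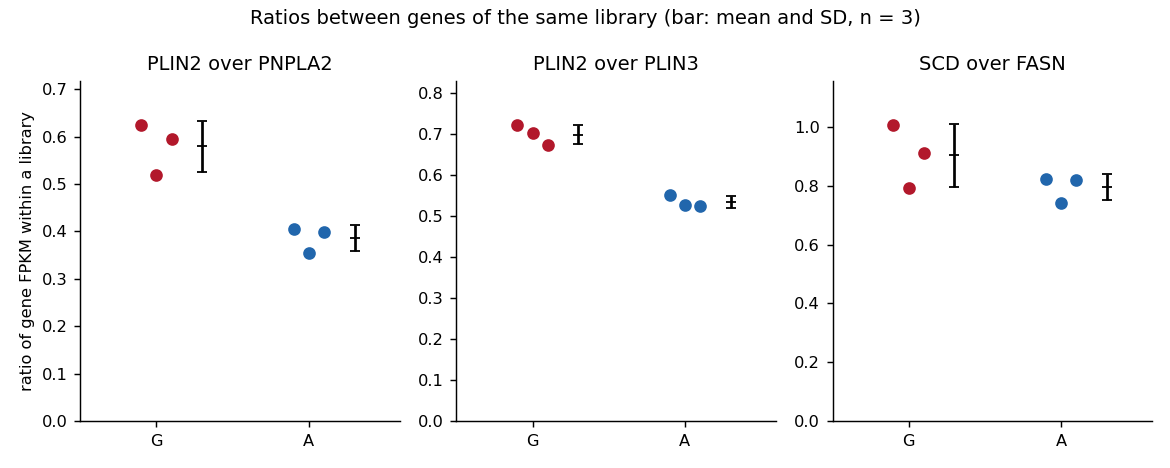
Ratios of gene FPKM within each library, in rs3742076_G (red, left) and rs3742076_A (blue, right), with the mean and SD (n = 3 each). PLIN2 over PNPLA2 and PLIN2 over PLIN3 separate the groups, at means of 0.579 in G against 0.386 in A and 0.699 in G against 0.534 in A, and SCD over FASN does not. The separation of PLIN2 over PNPLA2 follows from that of PLIN2 and PNPLA2 each.

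Over all 6 libraries the mean gene FPKM ran from PNPLA2 at 53.6 through PLIN3 at 41.2, FASN at 40.4, SCD at 34.2, PLIN2 at 25.3, ACLY at 19.4, DGAT1 at 10.3, SREBF1 at 6.35 and ACACA at 5.55 to ELOVL6 at 2.89. PLIN3 and FASN, FASN and SCD, and SREBF1 and ACACA overlapped across libraries and are not ordered. The deposited gene FPKM of StringTie divides by a length close to that of all exons joined, so a gene with many long or unused exons reads lower than its transcripts. Summed transcript FPKM put PLIN2 second, at 68.7, after PNPLA2 at 92.5. Across libraries the coefficients of variation were 4.36% to 12.5%, and the estimated read pairs behind each value ran from 401 for ELOVL6 to 8930 for FASN.

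The 10 genes had 107 annotated transcripts, of which 30, from all 10 genes, were tested. Limma called 0 of the 30, where 0.147% of all 29990 tested transcripts were called, and 3 had an unadjusted p under 0.05, against 7.81% of all. The groups did not overlap in 5 of the 30, against 16.0% of all. The 3 and the 5 both include the SREBF1 transcript ENST00000578469, which passed the filter only through the A libraries. For PLIN2, the transcript ENST00000276914 was at 71.5, 73.7 and 73.5 FPKM in G cells and at 57.1, 57.6 and 58.0 FPKM in A cells. That transcript carried 95.0% of the gene's summed transcript FPKM, and its log2 change was 0.34, with a limma adjusted p of 0.320. The processed transcript ENST00000464326 of PLIN2 was lower in every G library. It was at 2.55, 1.02 and 2.21 FPKM in G cells and 3.35, 2.84 and 3.17 FPKM in A cells. Its log2 change was -0.53, with a limma adjusted p of 0.681, and it held 3.68% of the summed transcript FPKM. The coding transcript of PNPLA2, ENST00000336615, was at 51.9, 63.5 and 56.6 FPKM in G cells and at 72.7, 82.5 and 71.5 FPKM in A cells. It stood lower in every G library, with a log2 change of -0.39 and a limma adjusted p of 0.529. The retained-intron transcript ENST00000525250 of PNPLA2 was at 13.5 ± 1.96 FPKM in G cells and 11.2 ± 1.12 FPKM in A cells (SD, n = 3 each).

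Some genes had transcripts between which the FPKM shifted from library to library. For ACACA, ENST00000614428 was at 7.50, 7.20 and 7.73 FPKM in G cells and at 7.22, 0.00899 and 0.0001 FPKM in A cells, where 0.0001 stands for no estimate. ENST00000616317, which starts farther upstream, was at 0.00396, 0.00419 and 0.0841 FPKM in G cells and at 0.0191, 6.43 and 7.28 FPKM in A cells. A replicate 1 thus carried the same transcript as the G libraries, and the pair summed to 7.50, 7.20 and 7.82 FPKM in G cells and 7.24, 6.44 and 7.28 FPKM in A cells. ENST00000614428 had a limma adjusted p of 0.649. ENST00000616317 reached 1 FPKM in too few libraries to be tested; the authors' deposited table marks it, with a log2 change of -7.22 and a q of 0.00982, the only one of the 107 with a q under 0.05, against 0.294% of all transcripts. For PLIN3, A replicate 3 alone had its FPKM on ENST00000592528, at 44.2 FPKM, with ENST00000221957 at 1.78 FPKM there, while ENST00000221957 held 44.6 to 48.9 FPKM in the G libraries and 48.2 and 48.0 FPKM in A replicates 1 and 2.

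**Figure D4:**
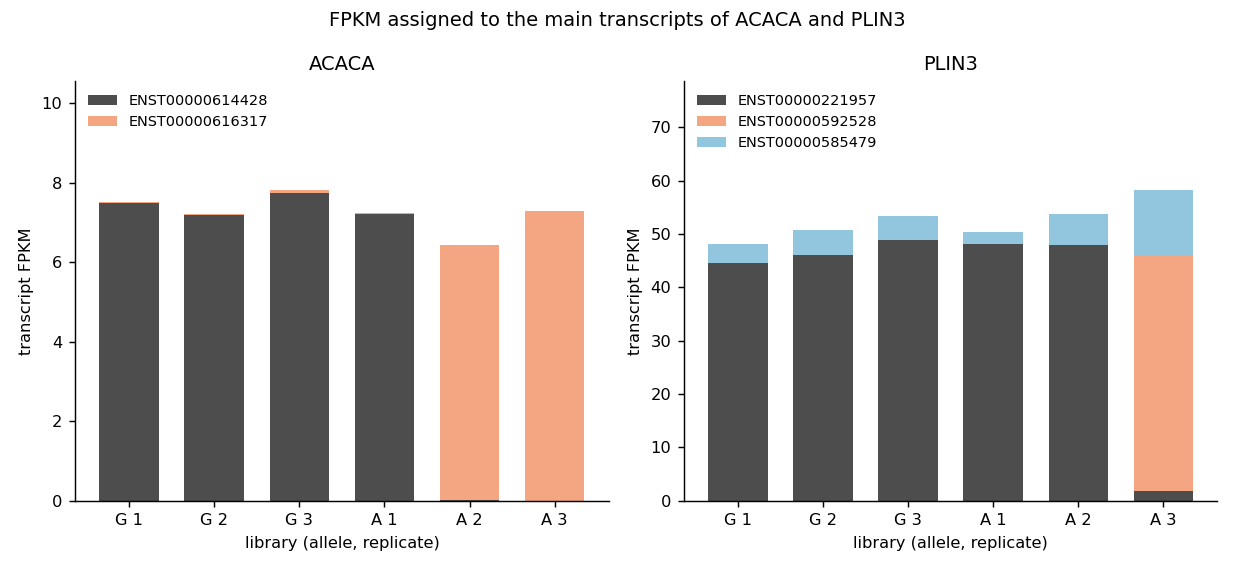
Stacked FPKM of the main transcripts of ACACA (left) and PLIN3 (right) in each library, the 3 rs3742076_G libraries first. The ACACA bars change transcript in A replicates 2 and 3 and the PLIN3 bar in A replicate 3, while the ACACA pair sums stay between 6.44 and 7.82 FPKM.

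SREBF1 transcripts that start upstream, ENST00000355815 and ENST00000261646, held 38.8%, 58.1% and 35.2% of its transcript FPKM in G cells and 32.1%, 42.0% and 31.9% in A cells, with overlap. ENST00000578469, a short SREBF1 transcript annotated for nonsense-mediated decay, was at 0.314, 0.366 and 0.0001 FPKM in G cells and at 2.55, 3.25 and 2.87 FPKM in A cells. It reached 1 FPKM only in the A libraries, so it was tested only because it was high there. The filter thus favoured separated groups and a small p. The groups of this transcript did not overlap, with a log2 change of -1.67 ± 0.19 (SE) and, by limma, an adjusted p of 0.085. The authors' deposited table marks it with a q of 0.671, as 1 of 2 marked among the 107 transcripts, where 0.796% of all transcripts are marked. ELOVL6 ENST00000302274 was at 2.49, 5.02 and 1.47 FPKM in G cells and at 0.0023, 1.42 and 1.26 FPKM in A cells. Its groups did not overlap, with a narrow gap, and the adjusted p by limma was 0.669. The other main ELOVL6 transcripts overlapped: ENST00000394607 was at 1.93 ± 0.714 FPKM in G cells and 2.63 ± 0.167 FPKM in A cells, and ENST00000513003, a processed transcript, at 0.999 ± 0.213 FPKM in G cells and 1.64 ± 2.05 FPKM in A cells (SD, n = 3 each).

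The main transcripts of the remaining genes overlapped between the alleles. FASN ENST00000306749 was at 43.2 ± 3.13 FPKM in G cells and 44.8 ± 2.16 FPKM in A cells (SD, n = 3 each), and ENST00000370355 is the single transcript of SCD in the table. ACLY ENST00000353196 was at 16.0 ± 3.51 FPKM in G cells and 15.4 ± 2.75 FPKM in A cells, and ACLY ENST00000393896 at 6.77 ± 5.52 FPKM in G cells and 6.84 ± 4.23 FPKM in A cells (SD, n = 3 each), the second being high in G replicate 3 and A replicate 2. For DGAT1, the coding ENST00000528718 was at 6.45 ± 1.37 FPKM in G cells and 7.02 ± 0.537 FPKM in A cells (SD, n = 3 each). Its retained-intron transcripts were at 10.3 ± 5.27 FPKM in G cells and 9.62 ± 2.05 FPKM in A cells (ENST00000524965) and at 5.41 ± 3.42 FPKM in G cells and 2.18 ± 1.03 FPKM in A cells (ENST00000531896; SD, n = 3 each). PLIN3 ENST00000585479 was at 4.22 ± 0.653 FPKM in G cells and 6.74 ± 5.14 FPKM in A cells (SD, n = 3 each).

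Other genes of lipid metabolism were read from 8 lists with 136 symbols, of which 134 were in the table and 103 were tested. Limma called 0 of the 103, where it called 0.109% of all genes. An unadjusted p under 0.05 was reached by 17 of them, 10 higher and 7 lower in G, which is 16.5% against 17.3% of all genes, and the groups did not overlap in 28, which is 27.2% against 24.9%. The median log2 change was 0.04 over these 103 genes, 0.05 over the 10 genes described and 0.02 over all tested genes.

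HILPDA, a droplet protein that inhibits PNPLA2, had the lowest adjusted p of the lists. It was at 32.6, 33.5 and 32.9 FPKM in G cells and at 24.3, 22.1 and 20.1 FPKM in A cells. No A library came near the G libraries, and the log2 change was 0.56, with a limma adjusted p of 0.107. HILPDA over PNPLA2 was 0.735, 0.615 and 0.686 in G cells and 0.441, 0.351 and 0.355 in A cells. As HILPDA was higher and PNPLA2 lower in every G library, this ratio had to separate the groups. Of the 12 tested droplet coat and biogenesis genes, HILPDA included, 2 had an unadjusted p under 0.05 in the higher direction and 1 in the lower. Of all tested genes, 17.3% reached that p in either direction. BSCL2, the seipin gene of droplet formation, was at 36.5 ± 0.607 FPKM in G cells and 33.4 ± 0.422 FPKM in A cells, and AUP1 at 21.5 ± 1.3 FPKM in G cells and 24.0 ± 0.557 FPKM in A cells (SD, n = 3 each).

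In the oxidation list, 2 of 22 tested genes were higher in G and 1 lower at an unadjusted p under 0.05. That p was reached by 17.3% of all tested genes, in either direction. SLC25A20, the carnitine carrier of the inner mitochondrial membrane, was at 4.38 ± 0.235 FPKM in G cells and 3.24 ± 0.292 FPKM in A cells, with a limma adjusted p of 0.179. CPT1A, which makes the acylcarnitine that enters mitochondria, was at 15.5 ± 0.657 FPKM in G cells and 13.1 ± 0.995 FPKM in A cells, with an adjusted p of 0.215 by limma. ECHS1, the mitochondrial enoyl-CoA hydratase and the gene that was lower, was at 68.9 ± 1.9 FPKM in G cells and 75.2 ± 2.92 FPKM in A cells (SD, n = 3 each), also without overlap, with a limma adjusted p of 0.276. Of 5 tested AMPK subunits, which phosphorylate and inhibit ACACA as a complex, 2 were higher in G at an unadjusted p under 0.05, against the same 17.3%. PRKAB2 was at 11.8 ± 0.241 FPKM in G cells and 9.82 ± 0.392 FPKM in A cells, and PRKAA2 at 2.69 ± 0.202 FPKM in G cells and 2.22 ± 0.132 FPKM in A cells (SD, n = 3 each). PRKAA1, at 32.8 ± 2.17 FPKM in G cells and 30.5 ± 1.67 FPKM in A cells, came next by p (SD, n = 3 each).

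Among 16 tested regulators, 2 were higher and 2 lower in G at an unadjusted p under 0.05, which 17.3% of all tested genes reached. SCAP, which escorts SREBP proteins to the Golgi, was at 23.1 ± 1.24 FPKM in G cells and 19.8 ± 1.58 FPKM in A cells. USF2 was at 8.46 ± 0.602 FPKM in G cells and 10.6 ± 0.951 FPKM in A cells. INSIG2, which holds SCAP in the endoplasmic reticulum, was at 14.3 ± 4.90 FPKM in G cells and 23.8 ± 5.75 FPKM in A cells, with overlapping libraries. Its log2 change was -0.72 from the gene table but -0.15 from summed transcript FPKM. In glycerolipid synthesis, 0 of 12 tested genes were higher and 1 lower in G at an unadjusted p under 0.05: AGPAT2 was at 33.2 ± 0.408 FPKM in G cells and 38.0 ± 0.961 FPKM in A cells (SD, n = 3 each). AGPAT1 was at 32.0 ± 0.955 FPKM in G cells and 34.8 ± 0.721 FPKM in A cells, and AGPAT3 at 2.95 ± 0.263 FPKM in G cells and 1.64 ± 1.20 FPKM in A cells (SD, n = 3 each), both short of that p.

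In fatty acid uptake and activation, 2 of 10 tested genes were higher and 2 lower in G at an unadjusted p under 0.05, among them ACSL4 at 11.2 ± 0.708 FPKM in G cells and 9.30 ± 0.912 FPKM in A cells, DBI at 42.7 ± 2.30 FPKM in G cells and 47.9 ± 1.16 FPKM in A cells, and SLC27A3 at 1.9 ± 0.178 FPKM in G cells and 2.44 ± 0.167 FPKM in A cells (SD, n = 3 each). Of 18 tested genes of synthesis, desaturation and elongation beside the 10 described, and of 8 tested lipolysis genes, 0 reached an unadjusted p under 0.05 in limma. The share of all tested genes that reached that p was 17.3%. The smallest p in synthesis were those of HACD4, at 2.00 FPKM in G cells and 1.67 FPKM in A cells, TECR, at 31.8 FPKM in G cells and 34.7 FPKM in A cells, and OXSM, at 2.59 FPKM in G cells and 2.18 FPKM in A cells. In lipolysis, PNPLA6 was at 12.5 FPKM in G cells and 13.4 FPKM in A cells and DDHD2 at 2.92 FPKM in G cells and 2.67 FPKM in A cells. The PNPLA2 activator ABHD5 was at 1.85 FPKM in G cells and 2.17 FPKM in A cells, and its inhibitor G0S2 at 0.247 FPKM in G cells and 0.149 FPKM in A cells, too low to be tested. PLIN4 and PLIN5 were also below 1 FPKM in both groups.

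**Figure D5:**
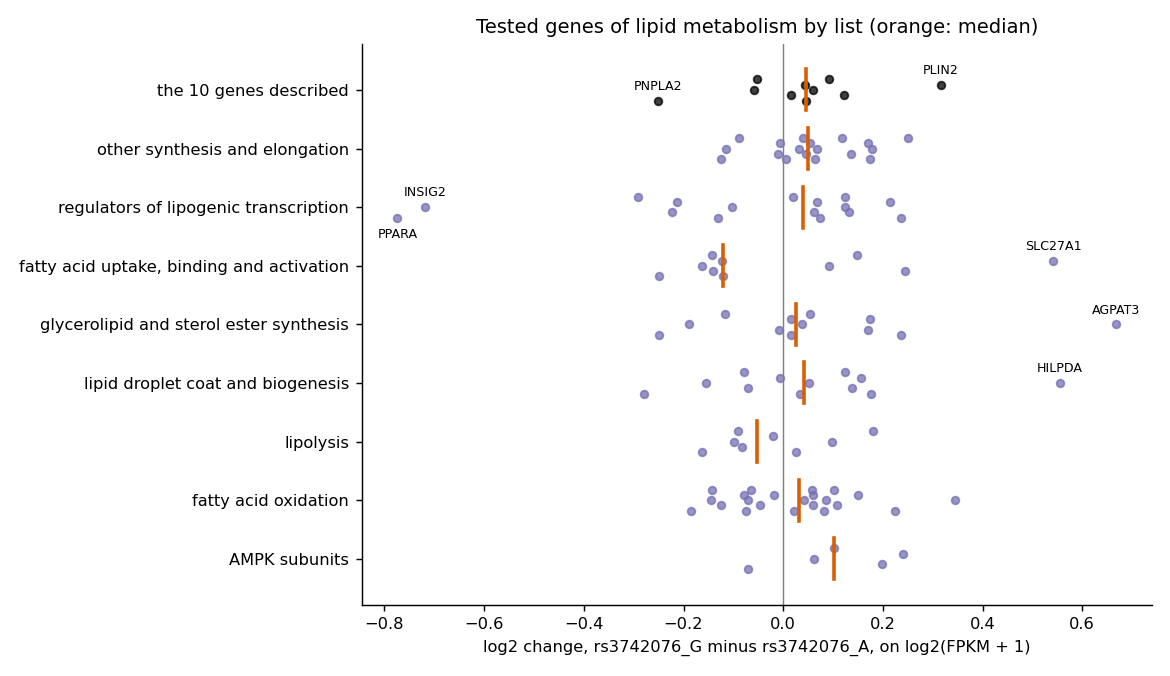
Log2 change, rs3742076_G minus rs3742076_A, of each tested gene in the 10 genes described (black) and in 8 lists of lipid metabolism (purple), with the median of each list in orange. Medians lie between -0.12 and 0.10, and PLIN2, PNPLA2, HILPDA, INSIG2, PPARA, AGPAT3 and SLC27A1 are labelled.

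Over the 6 libraries, the tested genes most like FASN in centred log2(FPKM + 1), by root mean square difference, were TUBGCP2 at 0.0097, MAPK3 at 0.018 and BTBD2 at 0.021, where the spread of FASN itself was 0.076. Those most like PLIN2 were FAM160A1 at 0.022, DEPDC7 at 0.030 and STON1 at 0.030, where the spread of PLIN2 was 0.16. STON1 was at 1.04, 1.14 and 1.11 FPKM in G cells and 0.705, 0.747 and 0.770 FPKM in A cells. It was thus tested only because its G libraries passed 1 FPKM, which favoured this shape. With 12787 genes and 6 libraries the likeness is a description of shape only.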

How the data were processed

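RNA was measured in 6 libraries of PC9 cells, 3 per allele. Per the labels' protocols, the libraries were strand-marked (dUTP), made from poly(A) RNA and read from both ends. Per the submitters' processing notes, reads were trimmed, aligned or assembled with tools that include StringTie 1.3.4d, HISAT2 2.0.4 and cutadapt 1.9. The build in those notes is a mouse one, yet the identifiers are human: GENCODE 29 on GRCh38 places 94.6% of the 206348 shared transcripts, and 99 of the 107 described, exactly where the tables do. For the strand setting, annotation release and the authors' test, the sources used here give nothing.

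The authors' deposited gene and transcript tables hold FPKM values and, per the file headers, a ratio of group means, the log2 of that ratio, p-values and q-values. Whole reads could not be recovered, so no count model was used. The depth of each library was estimated from the step that 1 read pair makes in single-exon genes over 400 bases, sought only between 15000000 and 30000000 read pairs. At these depths 12.5% to 21.6% of low values lay within 0.02 of a whole read pair, so depths and read pairs per gene are rough. The length that a gene FPKM divides by was within 1% of the joined exons for 83.3% of 16661 genes compared. Reads shared with overlapping or near-identical genes may be split by the authors' counting.

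Log2(FPKM + 1) was compared with limma 3.58.1 (R 4.3.3, intensity trend) in genes that reached 1 FPKM in 3 or more libraries, with Benjamini-Hochberg adjustment over all of them and a threshold of 0.05; transcripts were treated alike. The code was tested on simulated data, where limma called 8.4% of genes changed 1.25-fold and 56.8% of those changed 1.5-fold. The 10 genes and the lists were chosen with earlier results of these data known. By rule the text names all 10 genes and transcripts with at least 10% of a gene's summed transcript FPKM. It also names the 3 genes per list with the smallest p. DGAT1 over PNPLA2, HILPDA ratios, G0S2, PLIN4 and PLIN5 were added after their values were seen. So were the SREBF1 transcripts ENST00000578469 and ENST00000355815 and the PLIN2 transcript ENST00000464326. The alternatives tried changed the pseudocount, filter, scaling, trend, weights, replicate block and libraries used.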

Additional observations from a re-analysis of the deposited data

How the results depend on the processing

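Under 18 alternatives, 0 of the 10 genes were called by limma; the log2 change of PLIN2 was 0.29 to 0.42 (adjusted p 0.0567 to 0.312), that of PNPLA2 -0.33 to -0.14 (0.147 to 0.501) and that of HILPDA 0.49 to 0.66 (0.0576 to 0.294). The number of all genes called was 14 and became 1 with no filter, 6 with quantile scaling, 4 with no intensity trend, 6 with mitochondrial genes left out and the rest scaled to equal sums, 2 with summed transcript FPKM, and 2 to 14 with 1 library left out; it was 21 with array weights, 16 with either smaller pseudocount, 15 with equal sums, 12 with the filter on all libraries and 10 with median-ratio factors. Among the fits with 1 library left out, the lowest count, 2, came without A replicate 3. Deviations of same-numbered libraries correlated at 0.073, 0.015 and 0.040, and those of unlike numbers at -0.056 to 0.016. These values cannot show whether the numbers pair samples. With the replicate block, limma called 0 genes, and PLIN2 and PNPLA2 both had an adjusted p of 0.261. Member transcripts called were 0, and 0 to 1 with 1 library left out, the 1 being without A replicate 1. Of 629 values of 35 genes over these alternatives, 11 turned sign: with equal sums, FASN at 0.053, PLIN3 at 0.048 and PNPLA6 at 0.0096; SREBF1 at -0.0043 with median-ratio factors, -0.013 with quantile scaling, -0.04 without G replicate 2, -0.048 without A replicate 3 (range with 1 library left out -0.048 to 0.086) and -0.12 from summed transcripts; FOXM1 at -0.16 without A replicate 2 and -0.19 without A replicate 3 (range -0.19 to 0.44); and ABHD5 at 0.22 from summed transcripts. The cause was not tested. Equal sums put the median of all genes at 0.11, against 0.02, and made 9 of the 10 genes positive, against 7. The fewest read pairs behind a value of the 10 genes were 401, for ELOVL6.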
